A study of Mus musculus with 69 samples.

Results

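The 10 genes Csf3r, Ngp, Camp, Ltf, Retnlg, Mmp8, Clec4e, Clec4d, Trem1 and Il1r2, commonly used as markers of neutrophils, were followed in mouse dorsal skin after the phorbol ester TPA, which activates protein kinase C and causes acute inflammation. They were picked by gene symbol, 10 of the 18820 genes measured, and each of the 10 was read by 1 probe set that carries its symbol alone. The arrays came from FVB/N mice, an inbred laboratory strain labelled FVB (27 arrays), from the cross FVB/N x Spret/Ei, labelled F1 (25 arrays), and from the wild-derived Spret/Ei, labelled SPR (14 arrays). Per the labels, mice aged 8 weeks were shaved and given a single dose of TPA in acetone, or vehicle alone. Arrays of FVB were taken at 2, 6, 12, 24, 48, 72, 168 and 1008 h after TPA, with 3 arrays at each time and 3 of untreated FVB skin at 0 h. F1 had 2 arrays at each of 4, 6, 12, 24 and 72 h, 3 at 48 h, 6 at 1008 h and 4 of untreated skin at 0 h. SPR had 2 arrays at each of 4, 12, 24, 48 and 1008 h and 2 of untreated skin at 0 h. F1 at 2 and 168 h and SPR at 2 and 6 h were single arrays and were described without a test. The 9 arrays at 0 h served as controls. No arrays of vehicle-treated skin were among the samples, so shaving, acetone and ageing by 1008 h cannot be told apart from TPA. The labels do not say which arrays came from separate mice, and the p-values therefore rest on differences among arrays that could be partly technical.

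Neutrophils are short-lived white blood cells that enter injured skin within hours. Their granule proteins, among them the products of Ngp, Camp, Ltf and Mmp8, are made largely while the cells mature in the bone marrow, and the transcripts of many of them are low by the time the cells reach the blood. Receptors such as those encoded by Csf3r, Clec4e, Clec4d and Trem1 are carried by mature cells, and macrophages and monocytes can carry Clec4e, Clec4d and Trem1 as well. Il1r2, the decoy receptor that binds interleukin-1 without signalling, is also known from human keratinocytes.

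Some of the genes lie near each other, which the choice of members did not use. Clec4e and Clec4d are neighbours on chromosome 6, and Camp, Ngp and Ltf lie close together on chromosome 9, which also carries Mmp8 at a distance from them. The other 4 lie alone on chromosomes 4 (Csf3r), 16 (Retnlg), 17 (Trem1) and 1 (Il1r2). The promoters of 5 members, the 250 bases before the annotated start in RefSeq on GRCm38.p6, are shown because 3 of them (Clec4e, Clec4d and Trem1) belong to the genes that moved together on these arrays, 1 (Mmp8) to a granule enzyme that rose and 1 (Ngp) to a granule protein that did not pass the test. They are written 5′ to 3′ on the strand of the gene. Capitals mark matches on either strand to the C/EBP motif TTGCNNAA or the PU.1 motif GAGGAAG, which are named for factors of myeloid cells.
Clec4e, chr6:123289872-123290121, minus strand: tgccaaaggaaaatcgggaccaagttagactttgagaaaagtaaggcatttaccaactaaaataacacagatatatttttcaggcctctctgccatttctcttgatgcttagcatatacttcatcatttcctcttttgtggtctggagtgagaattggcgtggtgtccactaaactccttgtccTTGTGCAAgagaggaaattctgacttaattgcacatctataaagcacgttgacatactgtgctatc
Clec4d, chr6:123261857-123262106, plus strand: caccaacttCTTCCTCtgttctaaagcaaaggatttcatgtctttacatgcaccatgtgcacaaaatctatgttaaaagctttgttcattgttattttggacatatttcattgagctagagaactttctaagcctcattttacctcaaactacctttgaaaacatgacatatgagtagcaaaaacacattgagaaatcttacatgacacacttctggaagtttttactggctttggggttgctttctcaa
Trem1, chr17:48232489-48232738, plus strand: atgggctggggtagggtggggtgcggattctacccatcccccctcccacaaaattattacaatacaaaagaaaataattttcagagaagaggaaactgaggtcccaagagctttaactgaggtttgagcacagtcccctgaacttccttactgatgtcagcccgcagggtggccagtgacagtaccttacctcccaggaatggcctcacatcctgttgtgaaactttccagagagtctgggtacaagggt
Mmp8, chr9:7558179-7558428, plus strand: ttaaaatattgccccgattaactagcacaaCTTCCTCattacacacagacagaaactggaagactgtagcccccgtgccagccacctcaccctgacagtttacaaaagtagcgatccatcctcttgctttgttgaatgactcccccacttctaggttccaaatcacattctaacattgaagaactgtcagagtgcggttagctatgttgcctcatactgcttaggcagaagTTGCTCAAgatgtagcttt
Ngp, chr9:110419558-110419807, plus strand: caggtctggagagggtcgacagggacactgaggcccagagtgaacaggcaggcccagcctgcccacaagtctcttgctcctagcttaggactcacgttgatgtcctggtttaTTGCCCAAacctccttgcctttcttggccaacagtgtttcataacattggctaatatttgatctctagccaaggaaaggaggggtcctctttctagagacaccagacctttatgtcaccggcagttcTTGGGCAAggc

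The search covered the same window in all 10 members, each of which had 1 RefSeq entry. C/EBP letters were found in 5 members, with 2 matches in Ngp, 138 and 11 bases before the start, and 1 each in Ltf (75 bases before the start), Retnlg (246), Mmp8 (19) and Clec4e (66), against 9.56% of 32851 promoters. PU.1 letters were found in Csf3r (86 bases before the start), Mmp8 (220) and Clec4d (241), against 10.6% of promoters. No member held the AP-1 letters TGANTCA, which 6.75% of promoters hold, or the NF-kappaB letters (GGGA, any base, TTTCC), which 0.356% hold, within this window. Trem1 held none of the 4 motifs there. These matches are a description of letters, and no overlap between motifs occurred in a member.

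Values are log2 expression values from RMA, which corrects background, normalises the arrays to each other and summarises the probes of a gene, so 1 unit is a factor of 2 and a difference of log2 values is a fold change. The median gene of an array stood between 5.88 and 6.32. In untreated FVB skin 9 of the 10 markers were dim. Their means lay between percentile 3.97 of all genes (Mmp8, 2.88 ± 0.17, SD, n = 3) and percentile 25.2 (Camp, 4.40 ± 0.50). Il1r2 was the exception, with 9.45 ± 0.18 at percentile 92.4. Only Csf3r and Il1r2 exceeded the median gene of the array in the mean of any of the 27 groups. A dim probe set on an array compresses fold changes, so the sizes given below for the other 8 genes are those of weak signals.

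**Figure D1:**
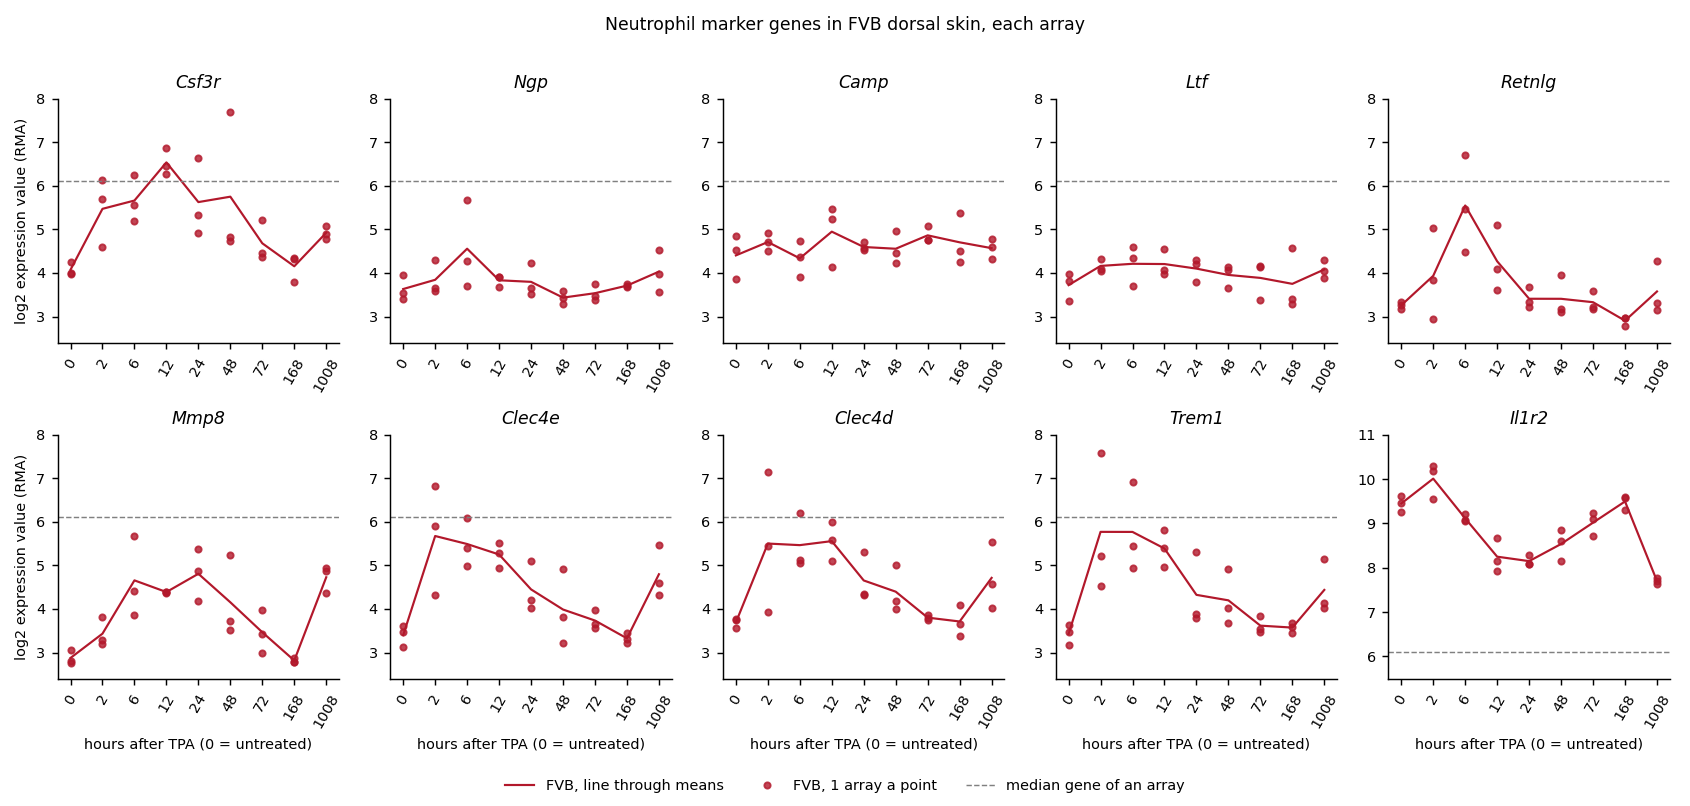
The plot of log2 values by array in FVB skin shows each of the 10 markers at hours after TPA, with 1 point per array, a line through the means of 3 arrays and a dashed line at the median gene. Clec4e, Clec4d and Trem1 are highest between 2 and 12 h, Il1r2 is lowest at 1008 h and Ngp, Camp and Ltf are called at no time.

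At 2 h after TPA in FVB skin, 4 of the receptors rose. Trem1, which amplifies inflammatory signals through the adaptor DAP12, Clec4e (Mincle, a receptor for microbial glycolipids and for products of dead cells), its partner Clec4d and Csf3r, the receptor for the granulocyte growth factor G-CSF, were called higher, 4 of 10 members against 3.6% of all genes. Called means a limma p under 0.05 after Benjamini-Hochberg adjustment over all genes, together with a log2 change of at least 1. Trem1 had 4.52, 7.58 and 5.21 at 2 h, against 3.64, 3.47 and 3.16 at 0 h. Clec4e had 4.31, 6.82 and 5.89 at 2 h, against 3.47, 3.60 and 3.12 at 0 h. Clec4d had 3.92, 7.14 and 5.44 at 2 h, against 3.56, 3.75 and 3.76 at 0 h. In these 3 genes every array at 2 h lay above every untreated array, as in 20.4% of all genes, replicate 2 was the highest and replicate 1 the lowest. The log2 changes were 2.35 ± 0.48 for Trem1 (SE, 5.08-fold, adjusted p = 0.000465), 2.28 ± 0.48 for Clec4e (adjusted p = 0.000606) and 1.81 ± 0.44 for Clec4d (adjusted p = 0.00334). Csf3r had 4.59, 6.12 and 5.71 at 2 h, against 4.00, 4.24 and 3.99 at 0 h, a log2 change of 1.40 ± 0.49 (adjusted p = 0.0466). It lost its call without any one of the 3 control arrays or without replicate 2 or 3 at 2 h. The decoy receptor Il1r2, at 0.56 (adjusted p = 0.242), did not pass the test. Without replicate 2 at 2 h the count was 2 of 10, since Clec4d (0.99, adjusted p = 0.144) as well as Csf3r (1.07, adjusted p = 0.247) then missed the test. Replicates 2 and 3 at 0 h were high in liver transcripts, and without both, which leaves 1 control array, the count was 0 at log2 changes of 2.13 for Trem1 and 2.20 for Clec4e. The mean of 9 Langerhans and dendritic cell markers lay between 8.42 and 8.45 at 2 h, 8.17 and 8.34 at 6 h and 7.90 and 8.18 at 12 h, against 7.57 to 7.72 at 0 h. Of these 9, limma called 2 higher at 2 h, 2 at 6 h and 1 at 12 h, against 3.6%, 6.45% and 5.46% of all genes. The part of these markers in the values of the receptors was not tested. At 2 h 0 of 11 macrophage markers were called, and 0 had an unadjusted p under 0.05.

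At 6 h the secreted protein Retnlg, a resistin-like hormone of neutrophils, and the collagenase Mmp8 joined the receptors, and 6 of 10 members were called higher against 6.45% of all genes. Retnlg had 5.46, 4.47 and 6.72 at 6 h, against 3.18, 3.33 and 3.26 at 0 h, all above the untreated arrays, as in 21.9% of all genes. Its log2 change was 2.29 ± 0.41 (4.89-fold, adjusted p = 4.36e-05), and it was the single member called between 2 and 6 h, with a further 1.61 ± 0.41 (adjusted p = 0.0102), a step in which 1.22% of genes were called higher. Mmp8 had 4.41, 3.87 and 5.68 at 6 h, against 2.81, 2.75 and 3.06 at 0 h. Its log2 change was 1.78 ± 0.40 (adjusted p = 0.000747). Trem1 remained at 2.34 ± 0.48, Clec4e at 2.09 ± 0.48 and Clec4d at 1.77 ± 0.44. Replicate 3 at 6 h was the highest array for Retnlg, Mmp8, Trem1, Clec4e, Clec4d and Csf3r. It also stood apart in lymphocyte and pancreas transcripts, with a mean of 8.60 over 7 T lymphocyte markers against 6.65 to 7.83 in untreated skin. Without it Csf3r lost its call (1.30, adjusted p = 0.0807) and the other 5 kept theirs. The part of that tissue difference in the values was not tested.

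At 12 h Csf3r reached its highest mean, and it was the largest change of a marker at any time in FVB. The arrays gave 6.46, 6.28 and 6.87 at 12 h, against 4.00, 4.24 and 3.99 at 0 h, a log2 change of 2.46 ± 0.49 (5.52-fold, adjusted p = 0.000237). Of the 10 members, 5 were called higher against 5.46% of all genes, and Il1r2 was called lower against 4.94%. Trem1 (1.96), Clec4d (1.87) and Clec4e (1.85) were still raised, and Mmp8 stood at 4.38, 4.40 and 4.39, a log2 change of 1.51 ± 0.40. Retnlg, with 3.61, 5.11 and 4.08, was no longer past the threshold (1.01, adjusted p = 0.073). With the 2 controls high in liver transcripts left out, 3 members were called higher at 12 h.

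By 24 h the receptors Clec4e (1.05, adjusted p = 0.139), Clec4d (0.96) and Trem1 (0.90) did not pass the test, although all 3 arrays of each still lay above the untreated arrays, as in 19.7% of all genes. Csf3r and Mmp8 were called higher, 2 of 10 against 2.85% of genes, and Il1r2 lower, against 2.64%. Mmp8 had its highest mean at this time, with 4.86, 5.39 and 4.17 at 24 h, against 2.81, 2.75 and 3.06 at 0 h (1.93 ± 0.40, adjusted p = 0.000912). Csf3r had 5.34, 6.63 and 4.91 (1.55 ± 0.49, adjusted p = 0.0278), and it lost its call without replicate 2 at 24 h or without any one of the 3 control arrays, which left 1 member.

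At 48 h the same 2 genes were called, against 3.1% of all genes, and both rested on 1 array. Csf3r had 7.69, 4.83 and 4.73 at 48 h, against 4.00, 4.24 and 3.99 at 0 h. Mmp8 had 5.23, 3.72 and 3.51 at 48 h, against 2.81, 2.75 and 3.06 at 0 h. Replicate 1 was far above its fellow replicates in both, and without it the log2 changes were 0.71 for Csf3r (adjusted p = 0.317) and 0.74 for Mmp8 (adjusted p = 0.254), a count of 0. The count was also 0 without control replicate 1 and 1 without control replicate 2 or 3. The mean of 11 macrophage markers ranged from 6.50 to 9.07 at 48 h, against 6.44 to 6.52 at 0 h, and replicate 1 had the 9.07. In this group 4 of 11 macrophage markers and 1 of 6 monocyte markers were called higher, and their part in the values of Csf3r and Mmp8 was not tested.

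At 72 and 168 h limma called 0 of 10 markers, and 0 had an unadjusted p under 0.05, against 0.94% and 0.255% of genes called higher at these times. The median log2 change of the 10 was 0.18 at 72 h and 0.04 at 168 h. At 168 h Retnlg had 2.96, 2.78 and 2.97, against 3.18, 3.33 and 3.26 at 0 h, and all 3 arrays lay below the untreated ones, as in 15.3% of genes (-0.35, adjusted p = 0.741).

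At 1008 h some markers differed from untreated skin again. Mmp8 and Clec4e were called higher, 2 of 10 against 4.22% of genes, and Il1r2 lower, against 3.92%. Mmp8 had 4.87, 4.37 and 4.94 at 1008 h, against 2.81, 2.75 and 3.06 at 0 h, a log2 change of 1.85 ± 0.40 (3.61-fold, adjusted p = 0.000846). At 168 h it had 2.79, 2.78 and 2.88, so the later time stood 1.91 ± 0.40 above the one before it (adjusted p = 0.000708). In that step from 168 to 1008 h, 3.27% of genes were called higher and 2.79% lower. Clec4e had 5.48, 4.33 and 4.58 at 1008 h, against 3.47, 3.60 and 3.12 at 0 h (1.40 ± 0.48, adjusted p = 0.0338), and 1.47 ± 0.48 above 168 h. Clec4e lost the call without any one control array or without replicate 1 or 3 at 1008 h, which left 1 member. Trem1 (1.01) and Clec4d (1.02) did not pass, with all 3 arrays above the untreated ones in both, as in 21% of genes. Csf3r gave 0.85 (adjusted p = 0.248) and Retnlg 0.32. Lists of other cell types moved at this time as well. The mean of 9 mast cell markers lay between 5.72 and 6.04 at 1008 h, against 5.08 to 5.58 at 0 h, with 1 called higher. The Langerhans and dendritic cell markers lay between 7.30 and 7.45, against 7.57 to 7.72, with 1 of 9 called higher and 2 lower. The 7 T lymphocyte markers lay between 5.62 and 5.79, against 6.65 to 7.83, with 6 called lower. The part of these lists in the values of Mmp8 and Clec4e was not tested. The labels give an age of 8 weeks for every array and do not say how old the untreated mice were at collection. Ageing over the length of the experiment therefore cannot be told apart from the treatment.

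The granule proteins Ngp, Camp and Ltf were not called at any time in FVB skin. Ngp, a cystatin-related granule protein, had 4.28, 3.71 and 5.68 at 6 h, against 3.40, 3.54 and 3.96 at 0 h. The groups overlapped, replicate 3 at 6 h was the high one, and the log2 change of 0.93 ± 0.30 had an adjusted p of 0.0189 but stayed under the fold threshold. At the other times in FVB its log2 changes ran from -0.20 to 0.40. Camp, the cathelicidin antimicrobial peptide, changed by between -0.07 and 0.54 and overlapped the untreated arrays at all 8 times. Ltf, the iron-binding lactoferrin, changed by between 0.03 and 0.49, and at 2 and 12 h its 3 arrays lay above every untreated one, as in 20.4% and 22.2% of genes. Over all 8 times, limma's moderated F test called 7 of 10 members, against 50.9% of all genes, and these 3 were the ones it did not call (adjusted p = 0.0585 for Ngp, 0.444 for Camp and 0.676 for Ltf). Among the 10 genes, the largest rises in FVB were those of Csf3r, Trem1 and Retnlg.

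Il1r2 was called lower at 3 times in FVB. Its arrays gave 9.62, 9.46 and 9.26 at 0 h, 9.55, 10.29 and 10.18 at 2 h, 7.93, 8.15 and 8.67 at 12 h, 8.28, 8.09 and 8.07 at 24 h, and 7.70, 7.62 and 7.78 at 1008 h. At 12, 24 and 1008 h every array lay below every untreated one, as in 19.8%, 21.2% and 23.6% of all genes. The log2 changes were -1.20 ± 0.31 at 12 h (adjusted p = 0.00366), -1.30 ± 0.31 at 24 h (adjusted p = 0.0037) and -1.75 ± 0.31 at 1008 h (adjusted p = 5.94e-05). At 48 h it stood at -0.91 (adjusted p = 0.0425), under the fold threshold, and by 168 h at 0.05. The call at 24 h was lost with both controls high in liver transcripts left out (-1.47, adjusted p = 0.0522). The difference between 1008 and 168 h was -1.79 ± 0.31 (adjusted p = 4.5e-05). Of 7 T lymphocyte markers, 6 were lower at 12 h and 6 at 1008 h but none at 24 h, when 3 had an unadjusted p under 0.05. Of 7 basal keratinocyte markers, 1 was called lower at each of 12, 24 and 1008 h. The shares of all genes called lower at these times were 4.94%, 2.64% and 3.92%. The part of these lists in the values of Il1r2 was not tested, and in whole skin fewer cells of a type and less RNA per cell cannot be told apart.

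**Figure D2:**
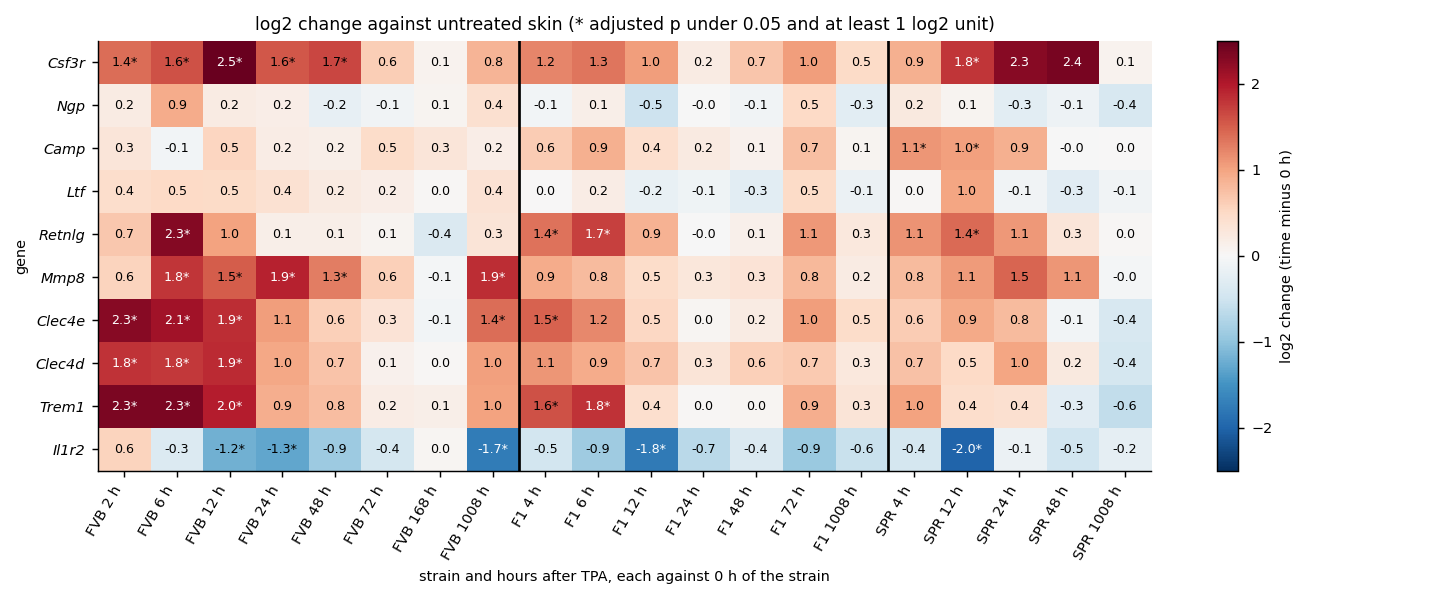
The heat map gives the log2 change of each of the 10 markers against 0 h of the same strain, with strain and hours across and genes down, and an asterisk marks an adjusted p under 0.05 with a change of at least 1 log2 unit. The receptors in the lower rows are marked at 2, 6 and 12 h in FVB, and Il1r2 in the bottom row is marked lower at 12 h in all 3 strains.

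Across the 27 FVB arrays, Clec4d and Trem1 had a Pearson r of 0.95, Clec4e and Trem1 of 0.94, and Clec4e and Clec4d of 0.94. After the mean of each time was taken out, these 3 values were 0.91, 0.89 and 0.89, so arrays of the same time that were high in one were high in the others. Csf3r and Mmp8 had an r of 0.74 (0.81 within times). Ngp had an r of 0.70 with Retnlg (0.57 within times), 0.52 with Clec4e (0.36), 0.48 with Mmp8 (0.52), 0.44 with Ltf (0.37) and -0.17 with Camp. Ltf had an r of 0.51 with Clec4e (0.25 within times) and 0.44 with Camp (0.54). Mmp8 and Il1r2 had an r of -0.64 (0.02 within times). Il1r2 had -0.01 with Clec4e, -0.03 with Clec4d and 0.09 with Trem1, and within times these were 0.45, 0.44 and 0.38. The points share arrays and their normalisation, and these values describe this set only. Of all other genes, Acod1, which makes itaconate in activated myeloid cells, was the most alike to Trem1 (r = 0.94), Clec4e (0.93), Clec4d (0.91) and Retnlg (0.87). Next for Trem1 were Trem3 and Cd14 (0.89 each), for Clec4e the chemokine Ccl3 (0.92) and Cd14 (0.88), for Clec4d Trem3 (0.89) and Ccl3 (0.88), and for Retnlg Zfp1 (0.86) and the chemokine Cxcl3 (0.85). Csf3r was most like the chemokine receptor Ccr1 (0.92), Emilin2 (0.92) and the integrin Itgam (0.92), and Mmp8 like the acute phase gene Saa3 (0.89), Ccr1 (0.85) and Tlr13 (0.84). Il1r2 was most like Rab11fip4 (0.94), Tmem164 (0.93) and Oga (0.90). The closest genes to Ngp (Igkv1-117, 0.80), Ltf (Mettl6, 0.79) and Camp (Olfr881, 0.68) lay lower.

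The 6 lists of related genes, chosen with earlier results of these data known, were read beside the markers in FVB skin. For reference, 3.6%, 6.45% and 5.46% of all genes were called higher at 2, 6 and 12 h, and 4.22% at 1008 h. Of 17 signals that recruit or produce neutrophils, 10 were called higher at 2 h, 11 at 6 h and 9 at 12 h, with median log2 changes of 2.24, 1.85 and 1.06, against 0.02, -0.0048 and 0.01 over all genes. At 2 h they were led by the chemokine Cxcl2 (5.78 ± 0.57), Il6 (5.68 ± 0.38), the chemokine Cxcl1 (4.22 ± 0.34) and Il1b (4.16 ± 0.43). At 1008 h Cxcl2 was called again, at 2.56 ± 0.57, as was the adhesion receptor Selp at 2.43 ± 0.40. Of 14 other surface receptors, 6, 5 and 7 were called higher at 2, 6 and 12 h, with the chemokine receptor Cxcr2 at 3.14 ± 0.56, 5.41 ± 0.56 and 4.85 ± 0.56. Cxcr2 was still called at 1008 h (2.73 ± 0.56). Of 13 other granule and cytosolic proteins, 1 was called higher at 2 h, 7 at 6 h and 7 at 12 h, led by Lcn2 at 4.95 ± 0.67 and S100a9 at 3.91 ± 0.74 at 6 h. Keratinocytes also make Lcn2, S100a8 and S100a9. By contrast, of 8 azurophil granule and precursor genes (Mpo, Elane, Prtn3, Ctsg, Ms4a3, Cebpe, Gfi1 and Fcnb) 0 were called by limma at any tested time in any strain, with at most 4 of 8 at an unadjusted p under 0.05.

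A list of 14 partners of the receptors held ligands and inhibitors as well as genes through which they signal. Csf3 in it was also among the 17 signals above, and Pglyrp1 among the 13 granule and cytosolic proteins. Of the 14, 5 were called higher at 2 h, 5 at 6 h and 7 at 12 h. Of all genes, 3.6%, 6.45% and 5.46% were called higher at these times. Socs3, which restrains the G-CSF receptor, stood at 3.41 ± 0.29 at 2 h, the kinase Jak2 at 1.86 ± 0.40, and Malt1 (2.22 ± 0.36) and Bcl10 (1.64 ± 0.26), which act with Card9 below Mincle, were also called. Of 7 C-type lectin receptors that are neighbours or relatives of Clec4e and Clec4d, 1, the beta-glucan receptor Clec7a, was called at 2 h (2.59 ± 0.47) and at 6 h (2.48 ± 0.47), and 2 at 12 h, with Clec4n at 1.41 ± 0.37.

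**Figure D3:**
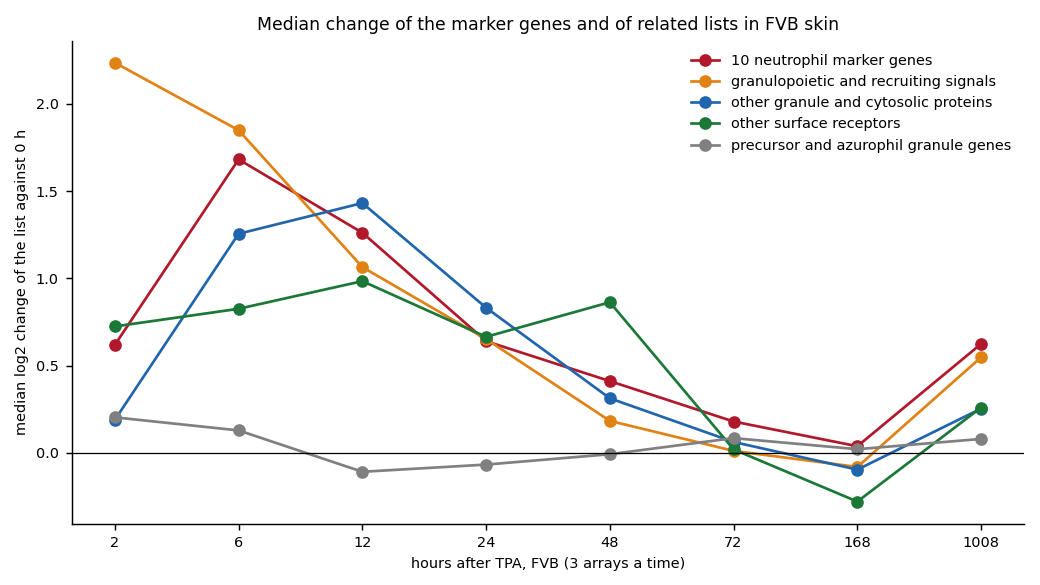
The plot gives the median log2 change against 0 h in FVB skin, by hours after TPA, for the 10 markers and 4 related lists, with 1 point per time and list from 3 arrays a time. The recruiting signals are highest at 2 h (2.24), the markers at 6 h (1.68) and the other granule proteins at 12 h (1.43), while precursor and azurophil granule genes stay between -0.11 and 0.20.

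In F1 skin members were called higher at 4 and 6 h. At 4 h Trem1, Clec4e and Retnlg were called higher, 3 of 10 against 5.46% of genes. Trem1 had 4.84 and 5.92 at 4 h, against 3.75, 3.73, 4.11 and 3.54 at 0 h (1.60 ± 0.51, adjusted p = 0.0193). Both arrays lay above every untreated one, as in 25.2% of all genes. Retnlg had 3.90 and 4.81 at 4 h, against 3.23, 2.96, 2.98 and 2.82 at 0 h (1.36 ± 0.44, adjusted p = 0.0217). Clec4e had 4.17 and 6.25 at 4 h, against 4.11, 3.37, 4.34 and 3.13 at 0 h, and the groups overlapped (1.47 ± 0.50, adjusted p = 0.0312). Replicate 2, an array of batch 3, was the high one at 4 h, and without it 0 of 10 were called, while 1 was called without control replicate 4. Clec4e also missed the test without control replicate 2 (adjusted p = 0.0788). The labels give F1 and SPR arrays a batch, 2 or 3, without saying what it is. In F1 each batch holds 1 array of 4 h, 1 of 6 h, 1 of 12 h and 2 of 0 h. A value within a batch at these times rests on a single treated array. Clec4e changed by -0.05 within batch 2 and by 2.99 within batch 3. The mean of the Langerhans and dendritic cell markers lay between 8.18 and 8.39 at 4 h and 8.15 and 8.41 at 6 h. At 0 h it lay between 7.47 and 7.76. Of the 9, 1 was called higher at 4 h and 2 at 6 h, against 5.46% and 5.44% of all genes. The part of this list in these values was not tested.

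At 6 h in F1 the called members were Trem1 and Retnlg, 2 of 10 against 5.44% of genes. Trem1 had 5.45 and 5.71 at 6 h, against 3.75, 3.73, 4.11 and 3.54 at 0 h (1.80 ± 0.51, adjusted p = 0.0086), and its change was 1.52 within batch 2 and 2.08 within batch 3. Retnlg had 4.77 and 4.64 at 6 h, against 3.23, 2.96, 2.98 and 2.82 at 0 h (1.71 ± 0.44, adjusted p = 0.00385), with 1.66 within batch 2 and 1.75 within batch 3. In both genes the 6 h array lay above both untreated arrays of its batch, and the share of all genes doing so was not counted. Without replicate 2 at 6 h, which leaves 1 array, 0 of 10 were called. Retnlg also missed the test without replicate 1 at 6 h (1.64, adjusted p = 0.0505). Camp had 4.81 and 5.16 at 6 h, against 4.34, 4.07, 4.08 and 3.94 at 0 h, and its log2 change of 0.88 ± 0.28 had an adjusted p of 0.0219, under the fold threshold.

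At 12 h in F1, Il1r2 was called lower, against 2.47% of genes, with 7.32 and 7.78 at 12 h, against 8.97, 9.60, 9.16 and 9.54 at 0 h (-1.77 ± 0.33, adjusted p = 0.000248). It was -1.29 within batch 2 (adjusted p = 0.715) and -2.26 within batch 3. At 12, 24, 48, 72 and 1008 h limma called 0 members higher in F1, where 2.48%, 1.14%, 1.04%, 0.202% and 0.515% of genes were called higher. Of the 10, those with an unadjusted p under 0.05 in either direction numbered 2, 1, 0, 4 and 1 at these times. The share of all genes at that unadjusted p was not counted, and the percentages before it use a stricter threshold. Replicate 2 at 72 h was an array of narrow range, and without replicate 1 it stands alone there, so no count is given. The F test over times in F1 called Il1r2, Retnlg and Trem1, 3 of 10 against 26.7% of genes. It included the 72 h contrast with the narrow array and was not repeated without that array. The single F1 array at 2 h had 2 markers above the 4 untreated arrays. Clec4e was at 4.61 (untreated 3.13 to 4.34) and Camp at 4.36 (highest untreated 4.34). Trem1 (4.00), Clec4d (3.98) and Csf3r (4.59) were not above their highest untreated array, and Il1r2 was at 8.57. The single array at 168 h had 2 markers above every untreated array. For single arrays the share of all genes above every untreated array was not counted.

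In SPR skin the granule gene Camp was called at 4 h. It had 5.55 and 5.46 at 4 h, against 4.57 and 4.23 at 0 h, both above the untreated arrays, as in 27.5% of all genes. Camp was the 1 member of 10 called there, against 2.57% of genes (1.11 ± 0.32, adjusted p = 0.0249). The single SPR arrays gave Camp 5.56 at 2 h and 5.97 at 6 h, the pair at 12 h 5.48 and 5.37, and the pair at 24 h 5.34 and 5.25, all above both untreated arrays. Of all genes, 14.7% at 12 h and 20.9% at 24 h had both arrays above the untreated ones. At 48 h it had 4.36 and 4.44, within the untreated range. The call at 4 h was lost without any one of its 4 arrays, 2 treated and 2 untreated, with log2 changes between 0.94 and 1.28. Trem1 had 5.37 and 5.36 at 4 h, against 4.54 and 4.19 at 0 h (1.00 ± 0.59, adjusted p = 0.442). The single array at 2 h had 5 markers above both untreated arrays, and the one at 6 h had 6. At 6 h Trem1 (4.52), Clec4e (4.24) and Clec4d (4.49) were not among them. The share of all genes was not counted for single arrays. The 6 h array and replicate 2 at 24 h were of batch 3, whereas both untreated SPR arrays were of batch 2.

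At 12 h in SPR, 3 members (Csf3r, Retnlg and Camp) were called higher against 3.1% of genes, and Il1r2 lower against 15.3%. All 4 calls were lost without replicate 1, an array of narrow range whose interquartile range of log2 values was 1.39 and whose median correlation with the other arrays was 0.780. Csf3r had 6.55 and 5.80 at 12 h, against 4.36 and 4.40 at 0 h, and Il1r2 had 6.72 and 8.35 at 12 h, against 9.63 and 9.44 at 0 h. The changes without the narrow array were 1.42 for Csf3r (adjusted p = 0.692), -1.19 for Il1r2 (adjusted p = 0.237) and 0.97 for Camp (adjusted p = 0.423), whose change with both arrays was 1.02. The 3 members called higher also lost their calls without control replicate 1 or 2. Without replicate 2 at 12 h the narrow array stands alone, so no count is given. Csf3r was highest later, with 5.74 and 7.67 at 24 h and 6.14 and 7.37 at 48 h, against 4.36 and 4.40 at 0 h. These log2 changes of 2.27 ± 0.61 (adjusted p = 0.115) and 2.38 ± 0.60 (adjusted p = 0.072) did not pass the test. The 7.67 came from an array of batch 3, whereas both untreated SPR arrays were of batch 2. Within batch 2, which leaves a single array at 24 h, the change of Csf3r at 24 h was 1.36. At 24, 48 and 1008 h limma called 0 of 10 members higher, where 0.191%, 0.165% and 0% of genes were called. At the looser unadjusted p under 0.05 the members numbered 4, 2 and 0, and the share of all genes at it was not counted. The mean of the macrophage markers lay between 7.19 and 8.16 at 24 h and 7.05 and 7.66 at 48 h, against 6.48 to 6.61 at 0 h, with its part in Csf3r not tested. The F test over times in SPR called Camp, Csf3r, Il1r2 and Mmp8, 4 of 10 against 35.3% of genes. That test included the 12 h contrast with the narrow array and was not repeated without it. Il1r2 changed by -2.00 at 12 h and by between -0.495 and -0.14 at the other tested times.

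**Figure D4:**
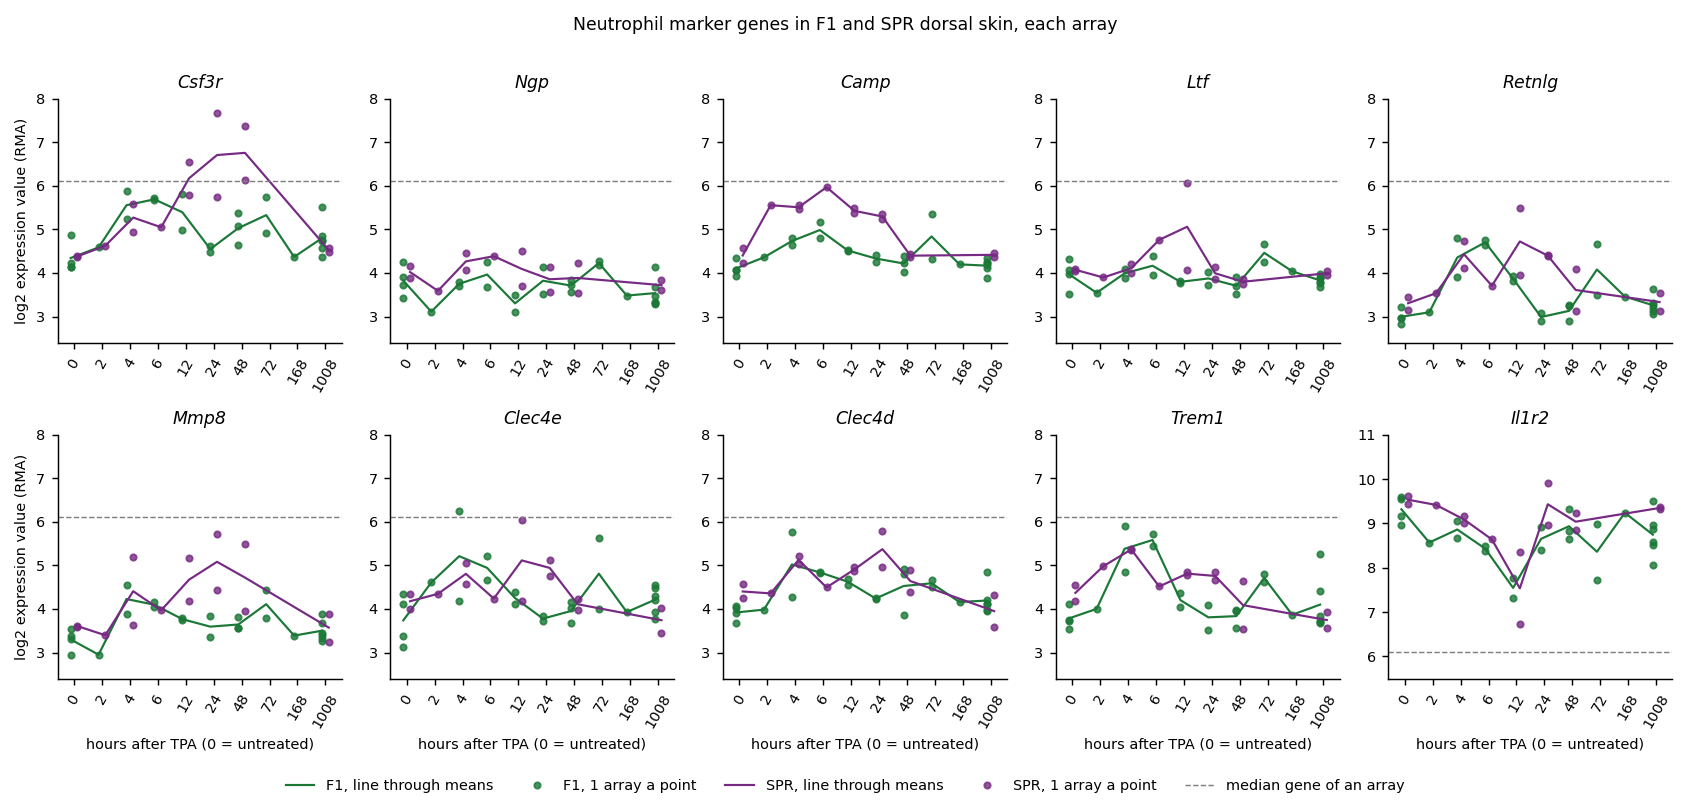
The plot of log2 values by array in F1 and SPR skin shows each of the 10 markers at hours after TPA, with 1 point per array, lines through the means of each strain and a dashed line at the median gene. Camp stands above its untreated level from 2 to 24 h in SPR, Trem1 and Retnlg are raised at 4 and 6 h in F1, and Il1r2 is lowest at 12 h in both.

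The difference of changes between strains was tested over the times they share, since FVB arrays form a batch of their own and levels cannot be compared with the other strains. Il1r2 was the 1 member of 10 called between F1 and FVB (adjusted p = 0.0346, against 1.88% of genes) and the 1 called between SPR and FVB (adjusted p = 0.00988, against 20.5%). At 1008 h its log2 change was -0.56 in F1 and -0.22 in SPR, against -1.75 in FVB, and at 12 h -1.77 in F1 and -2.00 in SPR, against -1.20 in FVB. No single time passed the test for any member. The difference at 1008 h was 1.19 ± 0.40 between F1 and FVB (adjusted p = 0.132) and 1.53 ± 0.50 between SPR and FVB (adjusted p = 0.106). The call between SPR and FVB was lost without the narrow SPR array at 12 h. Without replicate 2 at 12 h, or without replicate 1 of FVB at 48 h, 3 members were called between SPR and FVB. The call between F1 and FVB was lost without any 1 of 12 arrays, namely replicate 2 of FVB at 6 and at 72 h, each FVB array at 1008 h, each F1 array at 6 h, replicate 1 of F1 at 12 h, replicate 2 at 72 h and replicates 3, 5 and 6 at 1008 h. Between SPR and F1 limma called 0 of 10, against 0.0106% of genes, with 1, Csf3r, at an unadjusted p under 0.05, and it called 2 without replicate 2 of SPR at 12 h. Mmp8 at 1008 h changed by 0.20 in F1, against 1.85 in FVB, a difference of -1.65 ± 0.51 (adjusted p = 0.0974). For the other 9 members the p-values missed the threshold, which does not show that the strains responded alike.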

How the data were processed

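RNA of dorsal skin was hybridised to 69 Affymetrix arrays, 66 of them with a strain and a time in the labels. The deposited values are log2 expression values of 35556 probe sets made by the authors with RMA, per the submitters' processing notes, which give no version. A batch adjustment before deposit is named in none of the sources used here. Of the probe sets, 21218 carry 1 gene symbol in the platform annotation, 1881 carry several and 12457 stay unnamed, and each of 18820 genes was represented by 1 probe set, the one of highest mean.

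Changes were fitted with limma 3.58.1 in R 4.3.3 to these log2 values. The model held a mean for each of 27 groups and a batch term that separates batch 3 from the others, with 38 residual degrees of freedom, and p-values are two-sided, with Benjamini-Hochberg adjustment over all genes per contrast. Errors of changes are standard errors of that fit, in which all strains share the residual spread of a gene. The narrow arrays of F1 and SPR therefore enter the errors and p-values of every strain, FVB included. Means of F1 and SPR groups are not adjusted for batch, whereas their changes are. The number of arrays limits the precision. Where genes with an unadjusted p under 0.05 are numbered, the share of all genes at that p was not counted.

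Named genes are the 10 members, called genes among the 4 largest changes of a related list at a time, and the 3 genes most like each member. Members, lists and alternatives were chosen with earlier results of these data known. The steps were tested on simulated data. Centring arrays on their medians shifted log2 changes by up to 0.18 (FVB at 2 h), so changes are those of the deposited scale. Motifs were searched in RefSeq promoters of GRCm38.p6. Alternatives covered the variance model, scaling, dim genes, fold threshold, strains fitted alone, batches, replicate block and arrays left out.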

Additional observations from a re-analysis of the deposited data

Results flagged for a closer look

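Il1r2 was marked because its course over the shared times differed between strains by the moderated F test. The adjusted p was 0.0346 for F1 against FVB, with 1.88% of genes called, and 0.00988 for SPR against FVB, with 20.5% called. The F1 call was lost without any of several single arrays, the SPR call without the narrow SPR array at 12 h. No single time passed the test. Csf3r was marked because replicate 3 of untreated F1 skin read 4.875 while the other 3 arrays lay between 4.128 and 4.231. Clec4d was marked because replicate 5 of F1 at 1008 h read 4.838 while the other 5 arrays lay between 3.947 and 4.197, and that array was also the highest of its group for Trem1 (5.25), Csf3r (5.52), Retnlg (3.63) and Clec4e (4.56). The test for an array apart was run on 20 pairs of a marker and a group (the 10 markers in F1 at 0 h and at 1008 h). It marks about 5% of such pairs by chance, and 2 were marked. The 3 arrays whose strain the labels do not give were marked because they held markers above every one of the 9 untreated arrays, 3 of 10 in the array of 2 h and batch 2, 8 of 10 in the array of 6 h and batch 3, and 8 of 10 in an array of batch 2 whose time is not given either. The share of all genes above every untreated array was not counted, so these counts have no reference. The 9 untreated arrays also span 3 strains and 3 batches, whose levels cannot be compared. The 3 arrays without a strain entered no tested comparison.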

How the results depend on the processing

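The 35 called changes of members were refitted under 15 to 19 settings each, which gave 578 pairs of a change and a setting. Of these pairs, 489 kept the direction and the call, and 88 kept the direction and lost the call. The 1 that reversed was Clec4e in F1 at 4 h, at -0.05 within batch 2. The causes of the changed counts below were not tested, except where fewer arrays or genes entered by construction. Members called higher with dim genes left out, which keeps 2 of 10 members, numbered 1 in FVB at 2, 6, 12, 24 and 48 h, 0 at 1008 h, 0 in F1 at 4 h, 1 at 6 h, 0 in SPR at 4 h, and 1 at 12 and 48 h. Without the 2 FVB controls high in liver transcripts they were 0 at 2 h, 3 at 12 h, 1 at 24 h (lower 0), 0 at 48 h and 1 at 1008 h, and the F test of F1 against FVB called 0. Without the 3 FVB arrays apart in cell type lists (replicate 3 at 6 h, 1 at 48 h and 3 at 72 h) 0 were called at 48 h, and the F tests against FVB called 2 in F1 and 3 in SPR. With each strain fitted alone, F1 had 5 at 4 h, 1 at 12 h and 1 at 72 h, and SPR 0 at 4 h and 0 at 12 h (lower 0). Each batch alone has 1 F1 array at each of 4, 6 and 12 h, so no counts are given for F1, where no call was kept within batch 2. At 4 h in F1, Trem1 changed by 0.92 within batch 2 and 2.28 within batch 3, and Retnlg by 0.80 and 1.92. Batch 2 alone gave 0 in SPR at 4 h and 12 h (lower 0). Cyclic loess gave 4 in F1 at 6 h, 0 in SPR at 12 h (lower 0), and 1 at 24 and at 48 h. Without the 2 narrow arrays F1 had 4 at 6 h, and SPR at 12 h is left with 1 array, so no count is given there. The narrow arrays, replicate 2 of F1 at 72 h and replicate 1 of SPR at 12 h, are not in the F1 groups at 0 and 6 h. They do enter the residual spread that all strains share, and its part in the F1 count was not tested. Centring on medians took the F test of F1 against FVB to 0.

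Leaving out each array in turn, members called higher ranged in FVB from 2 to 4 at 2 h, 5 to 7 at 6 h, 5 to 6 at 12 h, 1 to 2 at 24 h, 0 to 2 at 48 h and 1 to 2 at 1008 h. In F1 and SPR such a refit often leaves 1 array in a group, so no range of counts is given. In F1 at 4 and 6 h and in SPR at 4 and 12 h, some of these refits lost every call of a higher member. The call of Il1r2 lower in SPR at 12 h was lost without the narrow array. The F tests called 0 to 1 in F1 against FVB, 0 to 3 in SPR against FVB and 0 to 2 in SPR against F1. Replicate numbers did not pair the arrays: the mean correlation of deviations at the same number was -0.005 in FVB, 0.004 in F1 and -0.018 in SPR, and the lowest pairs were at -0.61, -0.34 and -0.29. With replicate number as a block, 1 member was called in F1 at 4 h and 0 by the F test of F1 against FVB, and Csf3r in FVB at 2 h had an adjusted p of 0.0619. The few and mostly dim probe sets limit what a missed call can show. Shares of all genes called were counted in the main fit only. A changed count in a refit therefore cannot be told apart from more or fewer calls among all genes.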
